A study of Mus musculus with 9 samples.

Results

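Killer lymphocytes carry a shared set of effector genes, and 10 of them are described here in injected mouse muscle: the granzymes Gzma, Gzmb and Gzmk, perforin (Prf1), the granule membrane protein Nkg7, Fas ligand (Fasl), the transcription factors Eomes and Tbx21, the receptor chain Il2rb and the chemokine Ccl4. They were chosen by gene symbol, and each was found among the 55401 genes counted in 9 RNA-seq libraries. Of these 55401 genes, 18514 passed a filter on low counts and were tested, and 9 of the 10 effector genes were among them. Gzmk did not pass and is given by its counts. Wild-type FVB mice, 2 to 3 months old, were injected in the gastrocnemius of the calf, and that muscle was taken 7 weeks later. The AAV-GFP-MBNL1∆ group received an adeno-associated virus (AAV) vector carrying green fluorescent protein (GFP) and MBNL1∆, a form of the splicing regulator MBNL1. The AAV-GFP group received a vector with GFP and without MBNL1∆, and the saline group received no vector. Each group held 3 libraries. The series title speaks of a decoy protein against the repeat RNA of myotonic dystrophy, but the mice studied here were wild type. The labels used here give no vector dose, serotype or promoter and no sex, and they do not say that the libraries came from separate animals. P-values therefore measure the spread between libraries, which may be technical.

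Cytotoxic T cells and natural killer (NK) cells kill a target cell in a pair of ways. They release granules, from which perforin opens the target's membrane and granzymes, a family of serine proteases, enter and cleave proteins inside, or they display Fas ligand, which triggers the death receptor Fas on the target. The T-box factors T-bet (encoded by Tbx21) and Eomes drive this programme, the beta chain of the interleukin-2 and interleukin-15 receptor (Il2rb) carries the signals that sustain these cells, and Ccl4 attracts other immune cells. Healthy muscle holds few such cells, and they are known to enter it during viral infection, muscle inflammation and immune responses to gene transfer vectors.

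The promoters of Gzma, Gzmb, Prf1 and Nkg7 are shown as a description. Whether they bear on the levels of these genes in the libraries was not tested. The RefSeq table (GRCm38.p6) held 300-base promoters, from 250 bases before the start to 50 after it, for 8 of the 10 genes. Capitals mark matches, on either strand, to a T-box core (GTGTGA), a RUNX core (TGTGGT) or a STAT core (TTCNNNGAA), the last named for the factor family that interleukin-2 receptors activate. The sequences are those of Gzma (chr13:113100932-113101231, minus strand), Gzmb (chr14:56262285-56262584, minus strand), Prf1 (chr10:61297586-61297885, plus strand) and Nkg7 (chr7:43436888-43437187, plus strand).
Gzma: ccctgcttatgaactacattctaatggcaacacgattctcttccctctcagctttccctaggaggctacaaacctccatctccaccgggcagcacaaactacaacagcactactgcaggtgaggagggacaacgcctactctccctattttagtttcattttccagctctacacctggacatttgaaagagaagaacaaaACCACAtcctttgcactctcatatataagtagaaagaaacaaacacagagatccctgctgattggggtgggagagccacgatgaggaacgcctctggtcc
Gzmb: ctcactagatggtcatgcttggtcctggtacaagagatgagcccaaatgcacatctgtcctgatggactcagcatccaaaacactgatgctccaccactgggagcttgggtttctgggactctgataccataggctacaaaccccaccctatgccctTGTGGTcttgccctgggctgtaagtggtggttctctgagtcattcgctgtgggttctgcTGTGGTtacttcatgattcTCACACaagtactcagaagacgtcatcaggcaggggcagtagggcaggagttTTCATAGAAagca
Prf1: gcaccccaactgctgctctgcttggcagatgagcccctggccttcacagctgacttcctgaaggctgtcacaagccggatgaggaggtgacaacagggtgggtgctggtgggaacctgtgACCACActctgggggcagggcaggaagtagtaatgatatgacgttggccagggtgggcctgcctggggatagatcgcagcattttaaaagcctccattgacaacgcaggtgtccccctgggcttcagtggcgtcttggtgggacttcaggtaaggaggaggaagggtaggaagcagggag
Nkg7: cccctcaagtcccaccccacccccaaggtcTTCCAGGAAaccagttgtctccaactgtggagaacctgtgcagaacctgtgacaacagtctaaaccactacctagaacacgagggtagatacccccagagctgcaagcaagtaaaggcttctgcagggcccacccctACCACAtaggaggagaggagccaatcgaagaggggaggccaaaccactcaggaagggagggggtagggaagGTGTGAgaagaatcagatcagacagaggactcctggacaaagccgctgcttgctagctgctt
The RUNX core was found in 4 of the 8 promoters, those printed, and in 16.8% of all 32851 promoters of this length in the table. The T-box core was found in 3 of the 8, Gzmb, Nkg7 and Gzmk, and in 14.5% of all. The STAT core was found in 2 of the 8, Gzmb and Nkg7, and in 8.3% of all. No match of the 3 motifs overlaps another in the printed promoters. Fasl, Eomes and Tbx21 held none of the 3 in this window. A match describes letters and is not a measured binding site.

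Libraries held between 44603618 and 76970849 counts assigned to genes. Levels are given in CPM, a gene's count scaled to the size of its library, and 1 count was worth between 0.0125 and 0.0221 CPM, so a gene of few counts is known only within a wide counting error. AAV-GFP 2 stood apart from the other libraries, with the highest summed level of macrophage markers (731 CPM, against 61.6 to 216 CPM in the other 8) and the lowest of muscle fibre markers (68190 CPM, against 99960 to 142500 CPM). The X-inactivation transcript Xist was at 0.0182 to 0.0902 CPM in the AAV-GFP-MBNL1∆ libraries, 105.9 to 135.5 CPM in AAV-GFP and 105.1 to 129.6 CPM in saline. The Y-linked Ddx3y was at 82.6 to 84.6, 0.487 to 2.58 and 0.409 to 0.693 CPM in the same order. Sex and AAV-GFP-MBNL1∆ thus cannot be told apart in any comparison that includes that group.

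Taken as a sum, the 10 genes were scarce in saline muscle and more abundant with either vector. They summed to 9.28, 10.2 and 4.69 CPM in AAV-GFP-MBNL1∆ replicates 1 to 3, to 24.0, 80.3 and 6.15 CPM in AAV-GFP and to 1.59, 1.03 and 1.05 CPM in saline. All 6 vector libraries lay above all 3 saline libraries, and the vector groups overlapped. In bulk muscle, fewer cells of a type and less RNA per cell cannot be told apart. The saline sum was mostly Tbx21, which made up 72.7% to 80.3% of it, against 16.9% to 37.4% in AAV-GFP-MBNL1∆ and 7.58% to 21.6% in AAV-GFP. Il2rb was the main contributor in 5 of the 6 vector libraries, at 32.9% to 38.9% of the sum in AAV-GFP-MBNL1∆ and 32.3% to 34.9% in AAV-GFP, while in AAV-GFP-MBNL1∆ 3 Tbx21 held 37.4% and Il2rb 32.9%.

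**Figure D1:**
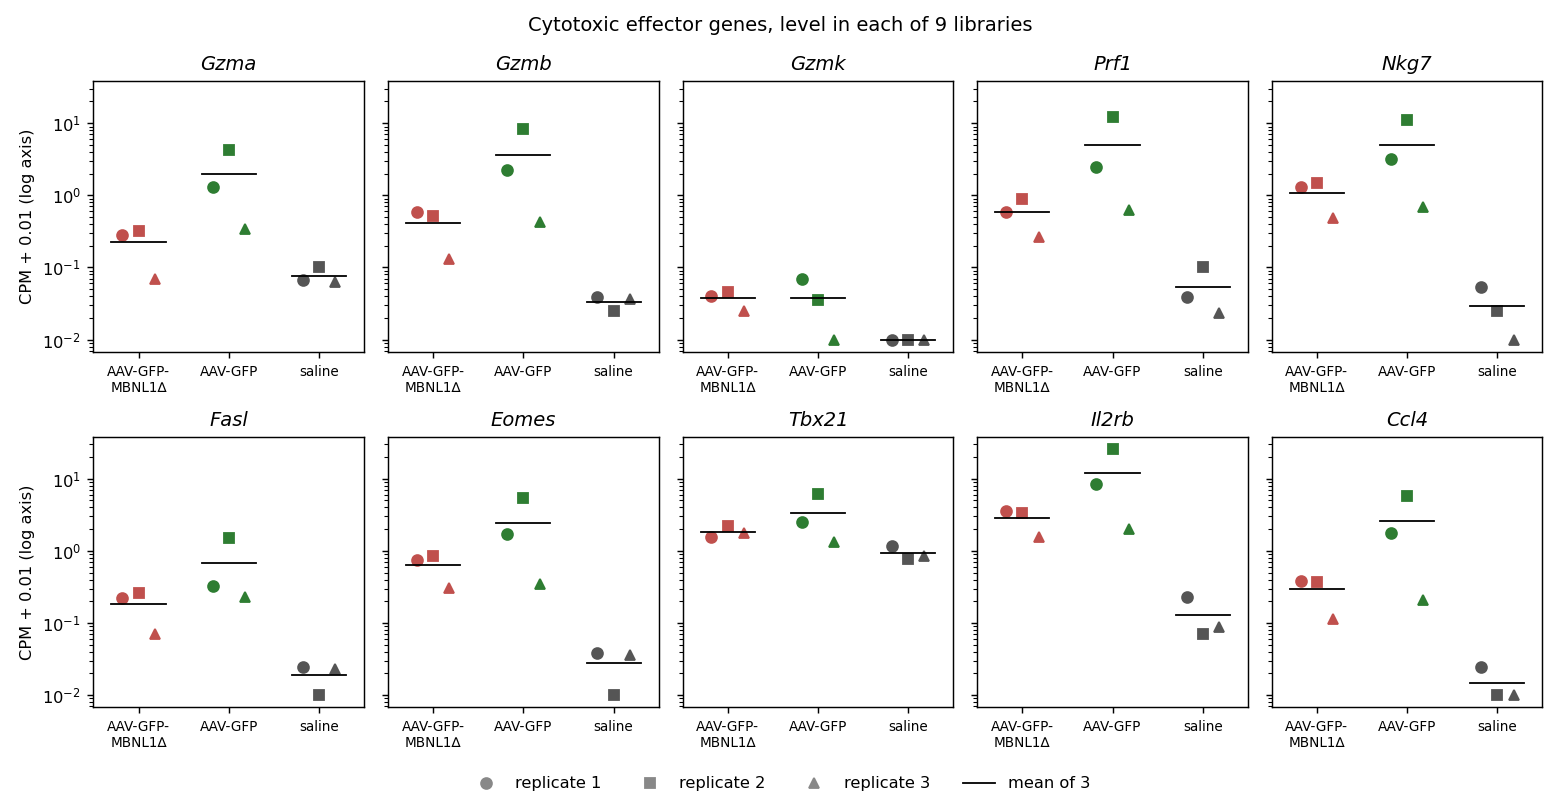
Level of each of the 10 cytotoxic effector genes in every library, as CPM + 0.01 on a log axis, with AAV-GFP-MBNL1∆ left of AAV-GFP and saline. Points are libraries, with their shape giving the replicate number, and lines are group means. AAV-GFP 2 was the highest library for 9 of the 10 genes, and Tbx21 alone was near 1 CPM in saline.

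Granule proteases and perforin were near the limit of detection in saline, and Gzma, Gzmb and Prf1, but not Gzmk, reached several CPM in AAV-GFP 2. Gzma, or granzyme A (chromosome 13, 113093825 to 113100981, minus strand, GRCm38), was at 0.271, 0.309 and 0.0599 CPM in AAV-GFP-MBNL1∆ 1 to 3, at 1.304, 4.295 and 0.332 CPM in AAV-GFP and at 0.0577, 0.0908 and 0.052 CPM in saline. The AAV-GFP-MBNL1∆ libraries all lay below the AAV-GFP libraries, and AAV-GFP-MBNL1∆ 3, with 4 counts, lay within the saline range of 4 to 6 counts. Gzmb, or granzyme B, the protease that activates caspases in the target (chromosome 14, 56258838 to 56262260, minus strand), was at 0.586, 0.509 and 0.1198 CPM in AAV-GFP-MBNL1∆, 2.27, 8.19 and 0.42 CPM in AAV-GFP and 0.0289, 0.0151 and 0.026 CPM in saline. Every vector library lay above saline, where Gzmb had 5 counts in all, and AAV-GFP 3 fell between AAV-GFP-MBNL1∆ 3 and 2. Gzmb neighbours a cluster of related granzymes, of which Gzmc had at most 4 counts in a library, Gzmf 1 count in all, and Gzmd, Gzme, Gzmg and Gzmn 0 counts. Whether reads were shared among them was not tested. Gzmk, or granzyme K (chromosome 13, 113171608 to 113225908, minus strand), had 2, 2 and 1 counts in AAV-GFP-MBNL1∆, 4, 2 and 0 in AAV-GFP and 0 in every saline library, which allows up to 0.0141 CPM over the saline group. Against 3 counts over that group, pooled Gzmk counts stood 1.88-fold higher in AAV-GFP-MBNL1∆ and 2.2-fold higher in AAV-GFP. The vector counts carry a counting error too. With it, the 95% counting intervals against the 0 saline counts began at 1.033-fold for AAV-GFP-MBNL1∆ and 1.295-fold for AAV-GFP. Between the vectors, pooled Gzmk counts gave a ratio of 0.854 for AAV-GFP-MBNL1∆ over AAV-GFP, with a 95% counting interval of 0.206 to 3.36, so a difference was not detectable at this depth.

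Prf1 (chromosome 10, 61297833 to 61304680, plus strand) was at 0.586, 0.873 and 0.255 CPM in AAV-GFP-MBNL1∆, 2.49, 12 and 0.62 CPM in AAV-GFP and 0.0289, 0.0908 and 0.013 CPM in saline. Its saline libraries held 2, 6 and 1 counts, and each vector library held more. AAV-GFP 3 lay inside the AAV-GFP-MBNL1∆ range. Nkg7, a granule membrane protein of killer cells that takes part in granule release (chromosome 7, 43437073 to 43438249, plus strand), was at 1.31, 1.46 and 0.479 CPM in AAV-GFP-MBNL1∆, 3.22, 11.2 and 0.686 CPM in AAV-GFP and 0.0433, 0.0151 and 0 CPM in saline. Saline 3 had 0 Nkg7 counts, saline 1 had 3, and the lowest vector libraries had 31 and 32.

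Fasl, the ligand of the death receptor Fas (chromosome 1, 161780689 to 161788495, minus strand), was at 0.21, 0.255 and 0.0599 CPM in AAV-GFP-MBNL1∆, 0.311, 1.51 and 0.221 CPM in AAV-GFP and 0.0144, 0 and 0.013 CPM in saline. With 32 counts over AAV-GFP-MBNL1∆, 152 over AAV-GFP and 2 over saline, Fasl had the lowest mean CPM of the 9 tested genes in AAV-GFP and in AAV-GFP-MBNL1∆. Ccl4, a chemokine that activated T cells, NK cells and macrophages secrete (chromosome 11, 83662584 to 83664683, plus strand), was at 0.376, 0.364 and 0.105 CPM in AAV-GFP-MBNL1∆, 1.75, 5.71 and 0.199 CPM in AAV-GFP and 0.0144, 0 and 0 CPM in saline. A single Ccl4 count was found over the 3 saline libraries. In both genes the vector libraries stood above saline, and AAV-GFP 3 lay within the AAV-GFP-MBNL1∆ range.

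Of the transcription factors, Eomes followed the granule genes and Tbx21 had a level of its own in saline. Eomes (chromosome 9, 118478212 to 118486132, plus strand) was at 0.737, 0.836 and 0.3 CPM in AAV-GFP-MBNL1∆, 1.72, 5.34 and 0.332 CPM in AAV-GFP and 0.0289, 0 and 0.026 CPM in saline. A noncoding gene on the opposite strand shares 2.8% of its exon bases. Tbx21, which encodes T-bet (chromosome 11, 97098071 to 97115331, minus strand), was at 1.56, 2.20 and 1.75 CPM in AAV-GFP-MBNL1∆, 2.49, 6.09 and 1.33 CPM in AAV-GFP and 1.16, 0.757 and 0.845 CPM in saline. Saline libraries held 80, 50 and 65 Tbx21 counts but 2, 0 and 2 Eomes counts. All vector libraries lay above saline for Tbx21 too, by far less than for Eomes, and AAV-GFP 3 was the lowest of them. Il2rb (chromosome 15, 78479256 to 78495271, minus strand) was at 3.61, 3.35 and 1.54 CPM in AAV-GFP-MBNL1∆, 8.36, 25.9 and 2.01 CPM in AAV-GFP and 0.216, 0.0606 and 0.078 CPM in saline. It was the most abundant of the 10 genes by CPM in every AAV-GFP library.

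Per kilobase of exon, which allows genes to be compared, Nkg7 led both vector groups. The order of mean level in AAV-GFP-MBNL1∆ was Nkg7 at 1.18 CPM per kilobase, Tbx21 at 0.739, Il2rb at 0.661, Ccl4 at 0.427, Gzmb at 0.282, Prf1 at 0.221, Gzma at 0.212, Eomes at 0.15, Fasl at 0.0903 and Gzmk at 0.0195. In AAV-GFP it was Nkg7 at 5.50 CPM per kilobase, Ccl4 at 3.87, Il2rb at 2.82, Gzmb at 2.53, Gzma at 1.97, Prf1 at 1.95, Tbx21 at 1.33, Eomes at 0.593, Fasl at 0.351 and Gzmk at 0.0202. Only the last neighbours, Fasl and Gzmk, had ranges over libraries that did not overlap in either group. Within single libraries, Il2rb stood above Ccl4, Ccl4 above Gzmb and Eomes above Fasl in 3 of 3 AAV-GFP-MBNL1∆ libraries. In AAV-GFP, Nkg7 stood above Ccl4, Il2rb above Gzmb and Tbx21 above Eomes in 3 of 3 libraries, and the remaining neighbours in both groups kept their order in 1 or 2 libraries. In saline Tbx21 led at 0.369 CPM per kilobase, followed by Gzma at 0.0665 and Il2rb at 0.0276. Tbx21 did not overlap Gzma, nor Gzma Il2rb, and the other 7 were at or under 0.0213 CPM per kilobase.

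AAV-GFP-MBNL1∆ against saline asked which effector genes differed between muscle given the MBNL1∆ vector and muscle given no vector. Nkg7 and Il2rb rose, and the other 7 tested genes were higher on average without passing the test. By edgeR's quasi-likelihood test with Benjamini-Hochberg adjustment over all genes tested, at an adjusted p under 0.05, 2 of 9 were called higher and 0 lower, where 4.76% of all tested genes were called higher and 4.6% lower, 9.37% in all. Nkg7 rose by 5.70 on the log2 scale (SE 1.37, edgeR adjusted p = 0.039) and Il2rb by 4.56 (SE 1.03, edgeR adjusted p = 0.0314), each higher in 3 of 3 libraries than in any saline library. Eomes narrowly missed the threshold, at 4.92 on the log2 scale (SE 1.29, edgeR adjusted p = 0.0503). Gzmb stood at 3.99 (SE 1.39, adjusted p = 0.114), Prf1 at 3.67 (SE 1.32, adjusted p = 0.125), Gzma at 1.64 (SE 1.09, adjusted p = 0.391) and Tbx21 at 1.0 (SE 0.49, adjusted p = 0.243) on the log2 scale. For the genes with 1 or 2 saline counts, pooled counts gave a ratio of 18.04 for Fasl (95% counting interval 4.60 to 155, edgeR adjusted p = 0.1) and 58.6 for Ccl4 (10.1 to 2360, edgeR adjusted p = 0.109). Such intervals cover counting error only.

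All 3 AAV-GFP-MBNL1∆ libraries lay above all 3 saline libraries in 8 of the 9 tested genes, Gzma being the exception, where 22.7% of all tested genes did so. The median log2 fold change of the 9 genes was 3.99, beside 0.016 over all tested genes. It was the same with the 2 genes of at most 3 saline counts set at 3 counts. Spread is estimated over all 3 groups, so every library bears on these calls. Without AAV-GFP 2, 8 of the 9 genes passed and without AAV-GFP 3, 6 did, while 0 passed without any 1 of the AAV-GFP-MBNL1∆ or saline libraries or AAV-GFP 1 (with Nkg7 reaching an adjusted p of 0.134 and Il2rb one of 0.122). Of all genes tested, 21.7% were called without AAV-GFP 2 and 12.02% without AAV-GFP 3, against 9.37% with all libraries. DESeq2 called 7 of the 9 and 15.6% of all genes, limma-voom 0 of the 9 and 8.47%, and edgeR without a filter 0 of the 9 and 4.43%.

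**Figure D2:**
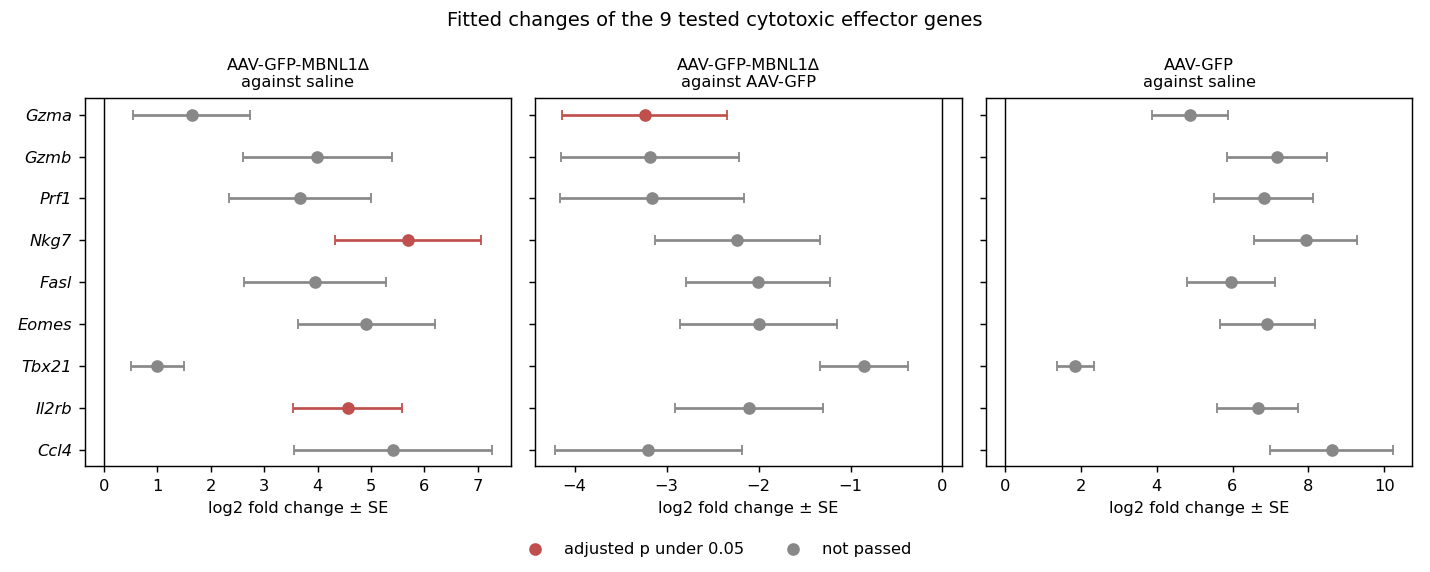
Fitted log2 fold change (points) and its standard error (bars) of the 9 tested genes in the 3 comparisons, from edgeR. Nkg7 and Il2rb passed against saline in AAV-GFP-MBNL1∆ and Gzma against AAV-GFP. The fitted values of Fasl and Ccl4 against saline rest on 2 and 1 saline counts.

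AAV-GFP-MBNL1∆ against AAV-GFP compared the vectors. Gzma fell, with a log2 fold change of −3.24 (SE 0.90, edgeR adjusted p = 0.0394), and all 9 fitted changes were below 0. That made 1 of 9 genes called lower, near the 10.3% of all tested genes called lower, and 0 of 9 called higher, against 10.8%, with 21.1% called in either direction. At an unadjusted p under 0.05, 8 of 9 were lower, beside 22.7% of all tested genes. Gzma was also the only one of the 9 whose AAV-GFP-MBNL1∆ libraries all lay below the AAV-GFP libraries, which held for 19.2% of all tested genes. Gzmb stood at −3.18 (SE 0.97, adjusted p = 0.0505), Ccl4 at −3.20 (SE 1.02, adjusted p = 0.0564) and Prf1 at −3.16 (SE 1.0, adjusted p = 0.0558) on the log2 scale by edgeR. The fitted differences of Nkg7, Il2rb, Fasl and Eomes were smaller in size, at −2.23 (SE 0.89), −2.10 (SE 0.81), −2.01 (SE 0.79) and −2.0 (SE 0.85), with edgeR adjusted p from 0.091 for Il2rb to 0.117 for Eomes. Tbx21 had the smallest, −0.86 (SE 0.48, edgeR adjusted p = 0.213). The median over the 9 genes was −2.23, beside −0.058 over all tested genes.

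The AAV-GFP libraries set how far apart the vectors stood. Each AAV-GFP-MBNL1∆ library lay below both AAV-GFP 1 and AAV-GFP 2 in all 9 genes. AAV-GFP 3 lay within the AAV-GFP-MBNL1∆ range for 7 of them, above it for Gzma and below it for Tbx21. Without AAV-GFP 3, all 9 genes passed as lower (edgeR adjusted p from 0.00395 for Ccl4 to 0.0277 for Fasl), in a fit that called 22.4% of all 19053 tested genes lower. Without any other single library, 0 of the 9 passed, and the adjusted p of Gzma reached 0.128. DESeq2 called 4 of the 9 lower and 16.2% of all genes, while limma-voom called 0 of the 9 and 6.64% lower, and edgeR without a filter 0 of the 9 and 3.7%. Without AAV-GFP 2 the difference of Gzma was −1.97 on the log2 scale, that of Nkg7 −0.87 and that of Tbx21 −0.06.

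AAV-GFP against saline compared the control vector with no vector. The 9 tested genes averaged higher in AAV-GFP, and none passed the adjusted test, as for every other gene. By edgeR, 0 of 18514 tested genes were called (0%), with a lowest adjusted p of 0.0841. At an unadjusted p under 0.05, 9 of 9 effector genes were higher, beside 15.6% of all tested genes. All 3 AAV-GFP libraries lay above all 3 saline libraries in 9 of 9, beside 14.7% of tested genes. The log2 fold changes were 7.93 for Nkg7 (SE 1.36), 7.17 for Gzmb (SE 1.32), 6.92 for Eomes (SE 1.25), 6.83 for Prf1 (SE 1.31), 6.66 for Il2rb (SE 1.07) and 4.88 for Gzma (SE 1.01), each with an edgeR adjusted p of 0.0841. Tbx21 stood at 1.85 (SE 0.50, adjusted p = 0.101). Pooled counts gave a ratio of 83.6 for Fasl (95% counting interval 22.8 to 697) and of 645 for Ccl4 (115 to 25500). AAV-GFP 2 held 121 of the 152 Fasl and 459 of the 586 Ccl4 counts, and without it the ratios were 29.2 (7.43 to 252) and 239 (42.2 to 9525). Without it the log2 fold changes were also smaller for the other genes, with Nkg7 at 6.54, Gzmb at 5.72, Prf1 at 5.12, Gzma at 3.60 and Tbx21 at 1.04. DESeq2 called all 9 higher, among 8.74% of all tested genes called higher and 0.464% lower. Without AAV-GFP 3, edgeR called all 9 higher (adjusted p from 0.00156 to 0.0039), among 15.3% of 19053 tested genes called higher, and without any other 1 library it called 0 of the 9. This comparison shares its saline libraries with that of AAV-GFP-MBNL1∆ against saline and its AAV-GFP libraries with the comparison of the vectors.

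Set against the saline mean, the median of the 9 genes in log2(CPM + 0.05) stood 2.97, 2.94 and 1.51 higher in AAV-GFP-MBNL1∆ 1 to 3 and 4.84, 6.73 and 2.51 higher in AAV-GFP 1 to 3. The groups overlap, since AAV-GFP 3 stood below AAV-GFP-MBNL1∆ 1 and 2. Over the 9 libraries the 9 genes moved closely together. Pearson's r of log2(CPM + 0.05) between pairs of them ran from 0.868 to 0.996, with a median of 0.963 over 36 pairs. These 9 points share 3 groups, so r describes the group differences as much as the spread within groups.

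Relative to Nkg7, the granule proteins lay lower with MBNL1∆ than with GFP alone, and the ratios of the receptor chain overlapped. The ratio of Gzma to Nkg7 within a library was 0.207, 0.212 and 0.125 in AAV-GFP-MBNL1∆ and 0.406, 0.384 and 0.484 in AAV-GFP. That of Gzmb to Nkg7 was 0.448, 0.35 and 0.25 in AAV-GFP-MBNL1∆ and 0.705, 0.733 and 0.613 in AAV-GFP, and that of Prf1 to Nkg7 was 0.448, 0.6 and 0.531 in AAV-GFP-MBNL1∆ and 0.774, 1.07 and 0.903 in AAV-GFP. For all 3 genes the groups did not overlap, AAV-GFP 3 included. The 3 ratios share Nkg7 as their denominator, and how often other genes per Nkg7 separate the vector groups was not counted. Ccl4 per Nkg7 was 0.287, 0.25 and 0.219 in AAV-GFP-MBNL1∆ and 0.544, 0.511 and 0.29 in AAV-GFP, also without overlap but nearly touching at AAV-GFP-MBNL1∆ 1 and AAV-GFP 3. The transcription factors per Nkg7 averaged higher in AAV-GFP-MBNL1∆. Eomes per Nkg7 was 0.563, 0.575 and 0.625 in AAV-GFP-MBNL1∆ and 0.535, 0.478 and 0.484 in AAV-GFP, without overlap. Tbx21 per Nkg7 was 1.195, 1.51 and 3.66 in AAV-GFP-MBNL1∆ and 0.774, 0.545 and 1.94 in AAV-GFP, with overlap and a mean log2 difference of 1.01. The ratio of Il2rb to Nkg7 overlapped, at 2.76, 2.3 and 3.22 in AAV-GFP-MBNL1∆ and 2.60, 2.32 and 2.94 in AAV-GFP.

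Summed over Gzma, Gzmb and Prf1, the level per Nkg7 was 1.10, 1.16 and 0.906 in AAV-GFP-MBNL1∆ and 1.89, 2.19 and 2.0 in AAV-GFP, a mean log2 difference of −0.94. It was −1.01 with Il2rb as the denominator, −0.71 with the summed NK-cell markers and −1.17 with the summed T-cell markers. These ratios were chosen after the values had been seen, so no test is given, and AAV-GFP-MBNL1∆ 3 rests on 4 Gzma, 8 Gzmb and 17 Prf1 counts. The share of Gzma among Gzma and Gzmb counts was close in both vector groups: 39 of 114 counts or 34.2% in AAV-GFP-MBNL1∆ (exact Clopper-Pearson 95% interval 25.6% to 43.7%) and 448 of 1278 or 35.1% in AAV-GFP (32.4% to 37.7%). In saline it was 14 of 19 counts or 73.7% (48.8% to 90.9%). These intervals pool libraries and cover counting error only, and AAV-GFP 2 held 345 of the 448 Gzma and 658 of the 830 Gzmb counts of its group. Within libraries, the ratio of Gzma to Gzmb was 0.462, 0.607 and 0.5 in AAV-GFP-MBNL1∆ and 0.575, 0.524 and 0.79 in AAV-GFP.

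**Figure D3:**
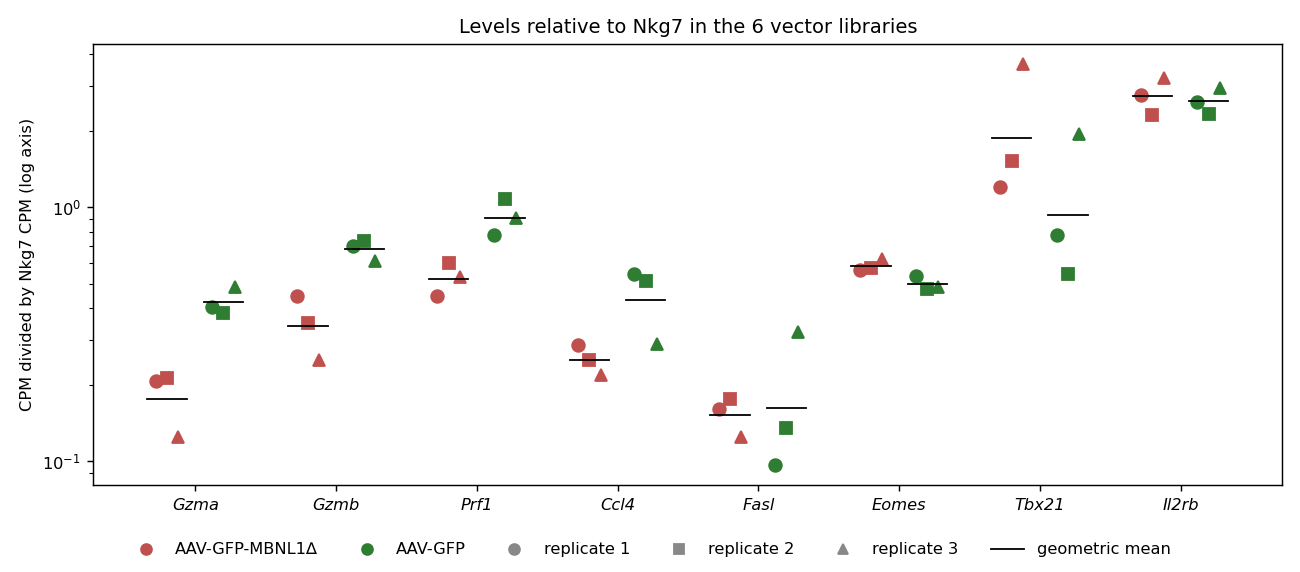
Level of 8 effector genes divided by that of Nkg7 in the same library, on a log axis, for the 6 vector libraries. Points are libraries and lines geometric means. Gzma, Gzmb, Prf1 and, narrowly, Ccl4 lie lower in AAV-GFP-MBNL1∆ without overlap. Eomes lies higher without overlap, while Il2rb, Fasl and Tbx21 overlap.

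Markers of the cells that could carry these genes were measured in the same libraries. The 6 NK-cell markers summed to 1.51 to 4.29 CPM in AAV-GFP-MBNL1∆, 2.99 to 35.9 CPM in AAV-GFP and 0.363 to 0.563 CPM in saline. The 7 T-cell markers summed to 5.47 to 12.9 CPM, 6.22 to 69.0 CPM and 1.91 to 2.74 CPM in the same order, where 60.3% of the exon bases of one of them, Cd247, overlap other genes. Cd8a and Cd8b1, the chains that mark cytotoxic T cells, summed to 0.929 to 2.47 CPM, 0.332 to 9.65 CPM and 0 to 0.0144 CPM, and Cd8a was at 0 in every saline library. Cd4 was at 1.004 to 2.55, 1.28 to 14.1 and 0.208 to 0.242 CPM. The sums of NK-cell and of T-cell markers thus stood higher where the effector genes did. The CD8 markers in AAV-GFP 3, at 0.332 CPM, were lower than in any AAV-GFP-MBNL1∆ library. Among NK-cell markers, mean Klra8 was 0.0653 CPM in AAV-GFP-MBNL1∆ and 0.0662 CPM in saline. Summed B-cell and macrophage markers also stood above saline in every vector library, and which cells carried the effector genes was not tested. B-cell markers summed to 1.39 to 5.26, 0.775 to 33.2 and 0.0606 to 0.325 CPM, macrophage markers to 103 to 136, 109 to 731 and 61.6 to 78.3 CPM, and neutrophil markers to 0.434 to 1.29, 0.288 to 4.18 and 0.0866 to 0.286 CPM, with Ly6g at 0 in saline. The 6 mast-cell markers summed to 9.62 to 12.2, 15.3 to 16.8 and 12.8 to 17.8 CPM. Of 7 T-cell markers 2 rose in AAV-GFP-MBNL1∆ against saline, Cd3e and Lck, and of 5 tested NK-cell markers 1, Ncr1. So did 1 of 2 CD8 markers and 0 of 4 B-cell markers, where 4.76% of all tested genes were called higher. Against AAV-GFP, 0 of 7 T-cell markers passed by edgeR (6 were lower at an unadjusted p under 0.05, beside 22.7% of all tested genes). Of 5 NK-cell markers 1, Klrk1, fell, beside 10.3% of all tested genes called lower. Whether these marker calls hold with 1 library left out was not examined. The part of all these markers in the effector gene results was not tested.

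Per summed NK-cell marker level, the 10 effector genes stood at 2.30, 2.37 and 3.10 in AAV-GFP-MBNL1∆, 2.25, 2.23 and 2.06 in AAV-GFP and 2.82, 2.83 and 2.46 in saline. Per T-cell marker they stood at 0.875, 0.79 and 0.858 in AAV-GFP-MBNL1∆, 0.813, 1.16 and 0.989 in AAV-GFP and 0.579, 0.412 and 0.551 in saline. Per NK-cell marker the AAV-GFP-MBNL1∆ libraries lay above the AAV-GFP libraries. Per T-cell marker the vector groups overlapped, with a mean log2 difference of −0.22, against 0.236 per NK-cell marker and −1.0 per CD8 marker. These spans are narrow beside those of the sums themselves, from 1.03 CPM in saline 2 to 80.3 CPM in AAV-GFP 2. Tbx21, which made up most of the saline sum, enters all of them.

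**Figure D4:**
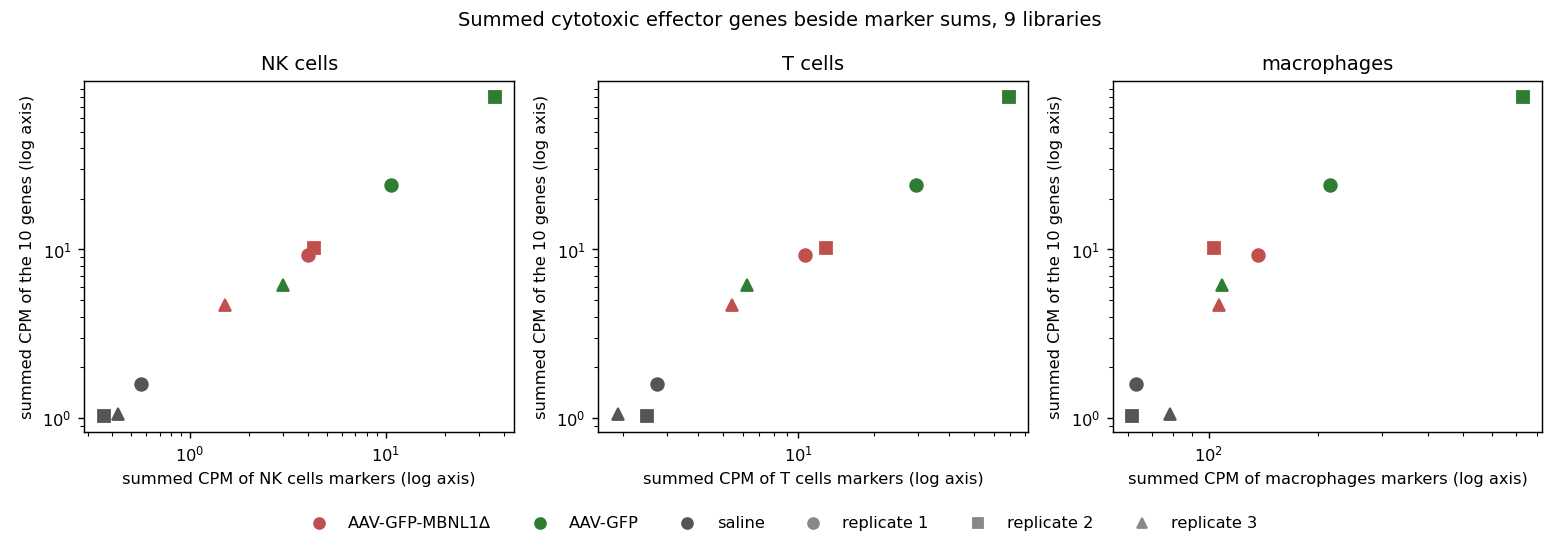
Summed level of the 10 cytotoxic effector genes against summed markers of NK cells, T cells and macrophages in each library, in CPM on log axes. Saline libraries lie at the lower left and AAV-GFP 2 at the upper right of each panel. AAV-GFP 3 lies among the AAV-GFP-MBNL1∆ libraries.

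Other genes of the killing pathway were taken as 8 lists of 78 genes, 67 of them tested. In AAV-GFP-MBNL1∆ against saline 5 of the 67 were called, 3 higher and 2 lower, which is 7.46% beside 9.37% of all genes tested, or 18 without AAV-GFP 3, 20 without AAV-GFP 2 and 2 or 3 without any other library. Against AAV-GFP 20 were called, 2 higher and 18 lower (26.9% of the 67 were called lower, beside 10.3% of all genes tested), or 55 without AAV-GFP 3, 17 without AAV-GFP 2, 7 or 8 without a saline library and 3 to 5 without AAV-GFP 1 or an AAV-GFP-MBNL1∆ library. In AAV-GFP against saline edgeR called 0, or 49 without AAV-GFP 3 and 0 without any other library. At an unadjusted edgeR p under 0.05, 45 were higher and 1 lower, beside 15.6% and 6.35% of all genes tested. DESeq2 called 44 of the 67, beside 9.21% of all genes tested. Without AAV-GFP 3 the share of all genes called was 12.02%, 34.9% and 17.1% in the 3 comparisons. Many of these genes are expressed by cells other than lymphocytes.

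Among granzymes outside the 10, Gzmm, or granzyme M, was the only one tested. It was at 18.4, 18.7 and 19.7 CPM in AAV-GFP-MBNL1∆, 13.1, 9.10 and 16.1 CPM in AAV-GFP and 16.4, 17.1 and 16.6 CPM in saline. Unlike the other granzymes it was well counted in saline, and AAV-GFP 2, highest for Gzma and Gzmb, was lowest for Gzmm. Gzmm rose in AAV-GFP-MBNL1∆ against AAV-GFP by 0.57 on the log2 scale (edgeR adjusted p = 0.0472), a call kept without AAV-GFP 2 or 3 and lost when another library was left out (highest adjusted p 0.145).

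Of 12 genes for granule contents and release, 1 rose in AAV-GFP-MBNL1∆ against saline and 2 fell against AAV-GFP. Ctsw, a cathepsin of killer cells, was at 0.947, 1.0 and 0.33 CPM in AAV-GFP-MBNL1∆, 1.51, 4.48 and 0.465 CPM in AAV-GFP and 0.0144, 0.0606 and 0.052 CPM in saline. Its log2 fold change against saline was 4.10 in AAV-GFP-MBNL1∆ (edgeR adjusted p = 0.0418). Unc13d and Stx11, which prime and fuse granules, fell against AAV-GFP, with log2 fold changes of −2.08 and −2.33 (edgeR adjusted p = 0.0225 and 0.0386). The medians of this list were 0.23 against saline and −1.24 against AAV-GFP for AAV-GFP-MBNL1∆, and 1.40 for AAV-GFP against saline. Of these 3 calls, Ctsw was kept only without AAV-GFP 2 or 3 (adjusted p up to 0.143), Stx11 only without AAV-GFP 3 (up to 0.134) and Unc13d without any AAV-GFP or saline library (up to 0.0964).

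In the list of granzyme inhibitors and related protease inhibitors, Serpinb6a stood higher in AAV-GFP-MBNL1∆ than in both other groups. Whether it acts on granzymes was not tested. Serpinb6a, an intracellular serine protease inhibitor of the same clade as Serpinb9, was at 452, 470 and 452 CPM in AAV-GFP-MBNL1∆, 159, 256 and 165 CPM in AAV-GFP and 140, 155 and 148 CPM in saline. No AAV-GFP-MBNL1∆ library overlapped another group. Serpinb6a rose against saline by 1.63 (SE 0.18, edgeR adjusted p = 0.00154) and against AAV-GFP by 1.25 (SE 0.18, edgeR adjusted p = 0.00415) on the log2 scale, and both calls were kept in all 9 refits that leave out 1 library. Exons of opposite-strand genes overlap 29.3% of its exon bases. Serpinb9, the inhibitor of granzyme B, had 5.90 ± 0.957 CPM in AAV-GFP-MBNL1∆, 16.5 ± 9.99 CPM in AAV-GFP and 6.35 ± 0.351 CPM in saline (mean ± SD, n = 3 each). It fell against AAV-GFP by 1.48 on the log2 scale (edgeR adjusted p = 0.0348), a call kept only without AAV-GFP 2 or 3 (adjusted p up to 0.121). In all, 1 of the 4 tested genes of this list rose against saline, and 1 rose and 1 fell against AAV-GFP.

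Of the 12 death receptor and caspase genes, 0 passed against saline by edgeR (0 also by DESeq2 and at an unadjusted p under 0.05) and 4 fell against AAV-GFP. Against saline, DESeq2 called 15.6% of all tested genes. At an unadjusted edgeR p under 0.05, 13.1% of them were higher and 12.9% lower. Among the 4, the log2 fold changes were −1.25 for Casp8, the caspase that Fas engages, −1.03 for Tnfsf10, or TRAIL, and −0.52 for the caspase-8 regulator Cflar (edgeR adjusted p = 0.038, 0.043 and 0.0343). Casp8 was at 6.91 ± 0.689 CPM in AAV-GFP-MBNL1∆, 16.4 ± 9.09 CPM in AAV-GFP and 7.71 ± 0.152 CPM in saline (SD, n = 3 each). Casp8 and Cflar kept their calls only without AAV-GFP 2 or 3 and Tnfsf10 only without AAV-GFP 3 (highest adjusted p 0.128, 0.105 and 0.143).

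Around Il2rb, which rose against saline, the genes of its signal that passed fell, while the list as a whole was mixed in direction. Il15, the cytokine that Il2rb helps to sense, was at 5.08, 6.855 and 5.65 CPM in AAV-GFP-MBNL1∆, 14.7, 15.65 and 18.15 CPM in AAV-GFP and 16.4, 17.2 and 16.8 CPM in saline. The AAV-GFP-MBNL1∆ libraries lay below the other 6, and AAV-GFP overlapped saline. Il15 fell by 1.52 against saline (SE 0.13, edgeR adjusted p = 0.000469) and by 1.46 against AAV-GFP (SE 0.13, edgeR adjusted p = 0.000536) on the log2 scale, in all 9 refits that leave out 1 library. Il15ra, which presents interleukin-15 to Il2rb on another cell, was at 21.7, 21.6 and 19.4 CPM in AAV-GFP-MBNL1∆, 29.3, 33.0 and 28.7 CPM in AAV-GFP and 26.15, 31.1 and 30.1 CPM in saline. It fell by 0.48 against saline (edgeR adjusted p = 0.0183, kept in 5 of 9 refits, up to 0.0841) and by 0.54 against AAV-GFP (edgeR adjusted p = 0.00909, kept in 9 of 9). Il2ra, the alpha chain, and Stat5a, which the receptor activates, fell against AAV-GFP, with log2 fold changes of −0.76 and −0.43 (edgeR adjusted p = 0.0245 and 0.0357). Il2ra kept its call in 5 of 9 refits (adjusted p up to 0.0943), and Stat5a only without AAV-GFP 2 or 3 (up to 0.106). Of 10 genes on this list 8 were tested, 2 of them fell against saline and 4 against AAV-GFP, and 0 rose in either. The fitted change was above 0 for 3 of the 8 in both comparisons. Against AAV-GFP, all 3 AAV-GFP-MBNL1∆ libraries lay above all 3 AAV-GFP libraries in 2 of the 8 genes and below them in 4. Each held for 19.2% of all tested genes. Il2rg, the shared gamma chain, is listed at 0 in all 9 libraries, where a gene on the same strand overlaps 30.5% of its exon bases, so its level is unknown.

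Other receptors for cytokines of cytotoxic cells numbered 8, and 0 passed in any comparison by edgeR. DESeq2 called 3 of them in AAV-GFP-MBNL1∆ against saline, 6 against AAV-GFP and 7 in AAV-GFP against saline. It called 15.6%, 30.6% and 9.21% of all tested genes in the same order. At an unadjusted edgeR p under 0.05, 3 were higher, 6 lower and 7 higher, beside 13.1%, 22.7% and 15.6% of all tested genes. Il18rap, a chain of the interleukin-18 receptor, had log2 fold changes of 3.21 (SE 0.88, edgeR adjusted p = 0.0576) in AAV-GFP-MBNL1∆ against saline and −2.19 (SE 0.73, edgeR adjusted p = 0.0622) against AAV-GFP. The list medians were 1.82 and −2.13 in these comparisons and 3.83 in AAV-GFP against saline. Of 15 tested transcription factors 0 passed against saline by edgeR and 5 by DESeq2, which called 15.6% of all tested genes. At an unadjusted edgeR p under 0.05, 5 were higher and 1 lower, beside 13.1% and 12.9% of all tested genes. Against AAV-GFP, 4 of the 15 fell by edgeR. Their log2 fold changes were −2.12 for Prdm1, or Blimp-1, −1.78 for Id2, −0.95 for Zeb2 and −0.55 for Ets1 (edgeR adjusted p = 0.0202, 0.0408, 0.0499 and 0.0154). Prdm1 and Ets1 kept their calls in 6 of 9 refits (adjusted p up to 0.0866 and 0.0605), and Id2 and Zeb2 only without AAV-GFP 2 or 3 (up to 0.138 and 0.149). Runx3, which acts with the T-box factors in killer cells, was at 1.06 ± 0.349 CPM in AAV-GFP-MBNL1∆, 3.76 ± 3.28 CPM in AAV-GFP and 0.247 ± 0.0453 CPM in saline (SD, n = 3 each), with edgeR adjusted p = 0.117 against saline in AAV-GFP-MBNL1∆ and 0.0841 in AAV-GFP.

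Of 7 tested effector cytokines, chemokines and chemokine receptors, 1 rose against saline and 3 fell against AAV-GFP. Ccl5, another chemokine of activated T and NK cells, was at 2.47, 2.78 and 1.03 CPM in AAV-GFP-MBNL1∆, 7.69, 29.6 and 1.28 CPM in AAV-GFP and 0.0433, 0.0151 and 0.078 CPM in saline. Ccl5 rose against saline by 5.42 on the log2 scale (SE 1.32, edgeR adjusted p = 0.0406), kept only without AAV-GFP 2 or 3 (adjusted p up to 0.142). Among the 3, Ccl3, a chemokine close to Ccl4, and the chemokine receptor Ccr1 fell against AAV-GFP, with log2 fold changes of −3.61 and −3.25 (edgeR adjusted p = 0.0473 and 0.0406), and each call was kept only without AAV-GFP 3 (highest adjusted p 0.149 and 0.137). The list median was 3.04 for AAV-GFP-MBNL1∆ against saline, or 3.17 with the 3 genes of at most 3 saline counts set at 3 counts, and −2.68 against AAV-GFP.

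**Figure D5:**
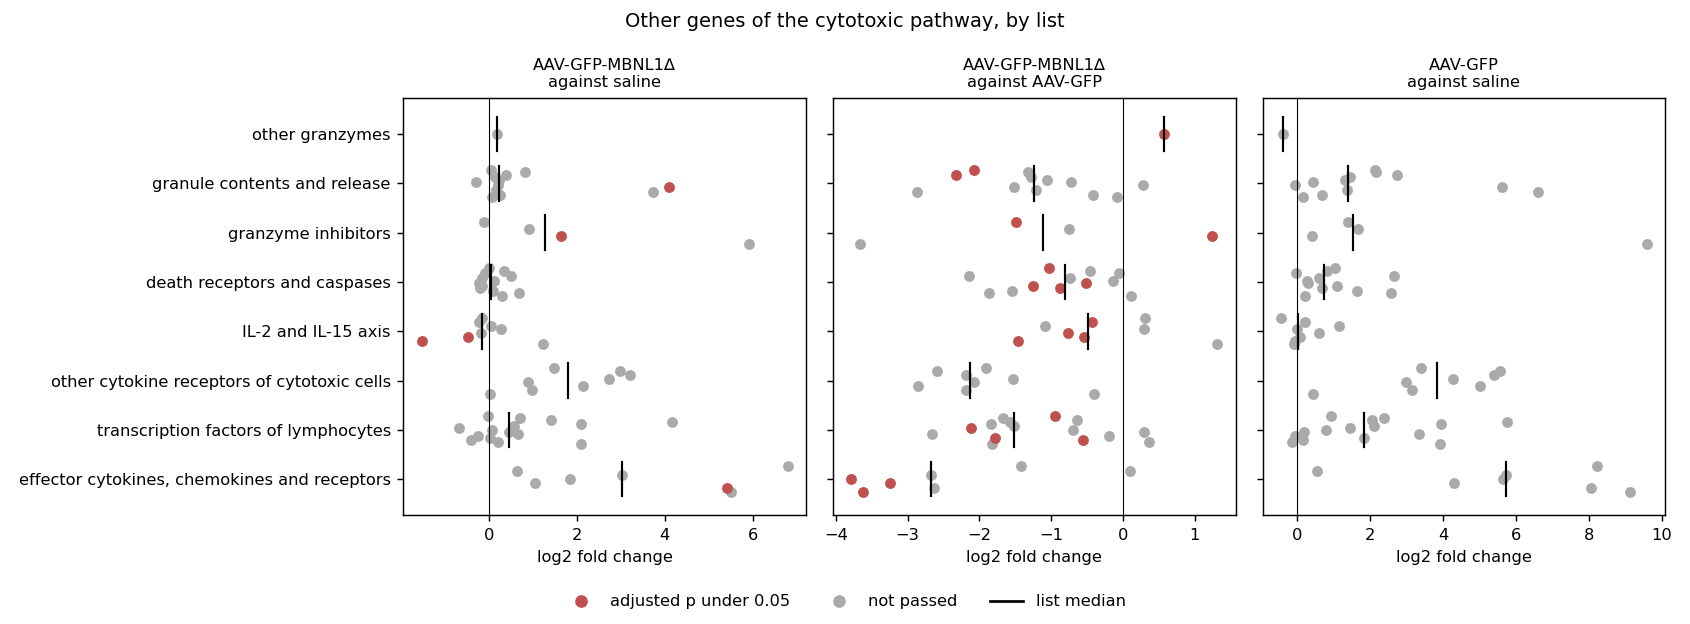
Fitted log2 fold changes of the tested genes of 8 lists of the killing pathway in the 3 comparisons, from edgeR. Each point is a gene, coloured where it passed, and black bars are list medians. Against saline 3 genes rose and 2 fell in AAV-GFP-MBNL1∆, against AAV-GFP 2 rose and 18 fell, and in AAV-GFP against saline 0 passed.

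Outside the 10 genes, the pattern over the 9 libraries was most closely matched by Klrk1, the activating receptor NKG2D of NK and CD8 T cells. Likeness was Pearson's r with the mean log2(CPM + 0.05) of the 9 tested effector genes, over 9 libraries and 12365 candidates with a mean of at least 1 CPM. It was 0.998 for Klrk1, 0.995 for Mir142hg, the host gene of a microRNA of blood cells, 0.995 for Fcho1, an endocytic adaptor, 0.995 for the chemokine Ccl3 and 0.994 for Zc3h12d, a zinc-finger RNase. Among the 9 genes, r with their own mean ran from 0.948 for Gzma and Tbx21 to 0.994 for Ccl4. That of Gzmm was −0.695.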

How the data were processed

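RNA of mouse gastrocnemius was sequenced in 9 libraries, 3 a group. The deposited values are counts of reads per gene, 1 table per library. Per the labels' protocols, KAPA mRNA libraries were prepared from 250 ng of Trizol-extracted RNA after DNase treatment. The submitters' processing notes name cutadapt 2.10, STAR 2.7.5a, HTSeq 0.12.4, DESeq2 1.30.0 and mm10. Which annotation was counted, and on which strand, is not given in the sources used here. Beside 55401 genes, a table had 5 summary lines without a gene, which took 16.8% to 18.3% of its total and were left out. Names, positions and exon lengths came from GENCODE M21 (GRCm38), which matched 55141 gene identifiers without version.

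All 9 libraries entered 1 edgeR 4.0.16 fit, run in R 4.3.3 (filterByExpr, TMM, robust quasi-likelihood F test, 1 mean per group), and 18514 genes were tested. Adjustment was by Benjamini-Hochberg within each of 3 comparisons, with calls at an adjusted p under 0.05. The biological coefficient of variation was 0.232, with 6 residual degrees of freedom. The fit was also run on simulated counts, in which no library was set apart from its group. That run does not bear on calls that hinge on 1 library. CPM are counts scaled to TMM library size, given per library or as mean ± SD. Floors are 3 counts. Intervals and floors cover counting error only. The members and lists were chosen with earlier results of these data known. Genes are named by rule: the 10 members, the called genes of each list (up to 4; where none passed, up to 3 by p-value), and the 5 genes most like the members. Of the genes the rule admits where none passed, Il18rap and Runx3 are described. Some called genes of the lists are counted but not reported here by name. Alternatives used limma 3.58.1 and DESeq2 1.42.0. The labels do not say that replicate numbers pair the libraries. Correlations of deviations from the group means ranged from −0.082 to 0.446 and were under 0.1 for 7 of 9 pairs. The highest, 0.168 and 0.446, were those of replicates 2 and 3 between AAV-GFP-MBNL1∆ and AAV-GFP. With 3 libraries a group, such correlations cannot exclude a batch shared by replicate number.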

Additional observations from a re-analysis of the deposited data

How the results depend on the processing

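Members called were 2 (AAV-GFP-MBNL1∆ against saline), 1 (AAV-GFP-MBNL1∆ against AAV-GFP) and 0 (AAV-GFP against saline). In the same order they numbered 0, 0 and 0 without a filter, 2, 0 and 0 with at least 1 CPM in 3 libraries, 7, 4 and 9 with DESeq2, 0, 0 and 0 with limma-voom, and 5, 0 and 0 with only the 2 groups compared. Leaving out 1 library gave 0 to 8, 0 to 9 and 0 to 9. Genes called in all were 1734, 3914 and 0, and numbered 2889, 5664 and 1705 with DESeq2 and 4584, 1159 and 0 with only the 2 groups compared. Leaving out 1 library gave 500 to 4047, 826 to 6649 and 0 to 3262. Called genes of the pathway lists were 5, 20 and 0, and numbered 3, 11 and 0 without a filter, 18, 46 and 44 with DESeq2, 3, 11 and 0 with limma-voom, and 26, 4 and 0 with only the 2 groups compared. Leaving out 1 library gave 2 to 20, 3 to 55 and 0 to 49. With the replicate number as a block, 7, 4 and 8 members, 1412, 2837 and 99 genes and 9, 16 and 3 pathway genes were called. The labels do not say whether these numbers pair the libraries. DESeq2's size factors moved none of these counts by over 1.5 times. No fitted fold change of a member, or of a called pathway gene, changed sign under any alternative run. The causes were not tested. The difference of the members per T-cell marker, −0.22, was −0.207 with Cd3d, Cd3e and Cd3g alone, −0.18 without Ccl4, −1.0 per CD8 marker and of the opposite sign, 0.236, per NK-cell marker (the CD8 and NK denominators were chosen after seeing the data), and ran from −0.35 to −0.10 with 1 library left out. The level of Gzma, Gzmb and Prf1 per Nkg7, −0.94, ran from −1.01 to −0.836 with 1 vector library left out, and was −0.71 per NK-cell marker and −1.17 per T-cell marker.

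Depth limits the saline values most: 8 of the 10 genes had at most 14 counts over the 3 saline libraries, and Gzmk at most 4 counts in any library.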
